A study of Mus musculus with 2 samples.

Results

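Fam155a, Nalcn, Unc79 and Unc80, the genes of the sodium leak channel complex, are 4 of the 32285 genes counted in single nuclei of gastrocnemius and plantaris, a pair of neighbouring calf muscles. Fam155a was picked on its measured level in myonuclei, the nuclei of muscle fibres, of plantaris against gastrocnemius. Nalcn, Unc79 and Unc80 were added as genes of the same complex. The difference in Fam155a between the muscles chose it and is therefore given below as a description. Each muscle of C57BL/6 mice aged 12 weeks gave 1 library of nuclei stained with propidium iodide, a DNA dye, and sorted. The labels name no genotype, transgene or treatment beyond the strain, and the sources used here do not give the sex or number of mice per library. With 1 library per muscle there was no replicate, so no test was run, and muscle, animals and library preparation cannot be told apart.

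NALCN is a channel that lets sodium leak into cells at rest and so sets how close the resting membrane potential lies to the firing threshold. It is best known from neurons, where it works only as part of a complex. FAM155A, also called NALF1, is a membrane protein that binds the extracellular face of NALCN and is needed for the channel to reach the cell surface. UNC79 and UNC80 are large intracellular proteins that bind each other and NALCN and stabilise it. In skeletal muscle, chloride and potassium channels carry most of the resting conductance.

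Fam155a lies on the minus strand of mouse chromosome 8 (9205902 to 9771161, build mm10, 565 kb) and Nalcn on the minus strand of chromosome 14 (123276634 to 123627144, 351 kb). Unc79 lies on the plus strand of chromosome 12 (102948859 to 103184065) and Unc80 on the plus strand of chromosome 1 (66468367 to 66699148). All 4 are protein-coding genes in GENCODE release M21. Over all nuclei Fam155a gave 196 unique molecular identifiers (UMIs, counted transcript molecules) in gastrocnemius and 2187 in plantaris. Nalcn gave 170 and 323. Unc79 gave 5 and 4, and Unc80 gave 6 and 10. The results on the complex therefore rest on Fam155a and Nalcn.

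The gastrocnemius library held 7374 nuclei with 19048595 UMIs (median 2260 per nucleus) and the plantaris library 9156 nuclei with 29248275 UMIs (median 2714), of which 9150 were analysed. The libraries shared 17 cell barcodes. Myonuclei, told from other nuclei by Ttn, Neb, Ckm, Ryr1 and other muscle transcripts in clusters built without the 4 genes, numbered 5106 in gastrocnemius and 5805 in plantaris. Levels are given as CPM, the UMIs of a gene per 1000000 UMIs of the nuclei summed. Intervals are at 95% and cover counting error only, and they are too narrow wherever the UMIs of a gene sit in few nuclei. Ttn, a muscle transcript that other nuclei should lack, stood at 50077 and 42489 CPM in myonuclei of gastrocnemius and plantaris and at 7002 and 8268 CPM in mesenchymal progenitors, the fibroblast-like cells of muscle. It stood at 16568 to 21973 CPM in macrophages, muscle stem cells, pericytes and tenocytes of both libraries, so all of these classes held free or doublet-borne muscle RNA.

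In myonuclei, Fam155a gave 18 UMIs in gastrocnemius (1.17 CPM, 0.692 to 1.85) and 1316 in plantaris (61.8 CPM, 58.5 to 65.2). This is a log2 ratio of plantaris over gastrocnemius of 5.72 (5.06 to 6.48). Of 13171 genes with 20 or more UMIs, 9.11% were at a log2 ratio of 1 or more and the median was 0.18. Outside the junction nuclei described below, Fam155a gave 16 UMIs against 862, a log2 ratio of 5.30 (4.60 to 6.12). These nuclei still take in part of the cluster that holds the myotendinous junction nuclei (cluster 14, below). Its plantaris nuclei with fewer than 3 Col22a1 UMIs held 310 Fam155a UMIs. Myonuclei outside cluster 14 held 16 UMIs in gastrocnemius and 585 in plantaris. Taking in the unnamed nuclei as well lowered the ratio to 4.54.

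The plantaris UMIs were not spread over the myonuclei. Of 5805 nuclei, 5666 held no Fam155a UMI, 79 held 1 and 10 held 2 to 4. The other 50 nuclei, 0.861% (0.640% to 1.13%), held 5 or more and together carried 1211 of the 1316 UMIs, or 92.0%. The highest nucleus held 135 UMIs, the next 75 and 58, and 25 nuclei held 20 or more. In gastrocnemius 14 myonuclei held 1 UMI, 2 held 2, and none of the 5106 held more. This allows a share of nuclei with 5 or more of up to 0.0722%. The difference in the summed level was thus mostly carried by a small set of plantaris nuclei with much Fam155a RNA each. Nuclei with 1 to 4 UMIs were also more frequent in plantaris, 89 of 5805 against 16 of 5106 in gastrocnemius. Among 3391 genes with 500 to 3000 UMIs in plantaris myonuclei, a median of 0.502% of a gene's UMIs came from nuclei with 5 or more of them, and 5 genes (0.147%) reached 90%. Besides Fam155a these were Ano4, Kcnh7, Kcnip4 and Tafa4. The threshold of 5 UMIs was set after the values were seen.

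**Figure D1:**
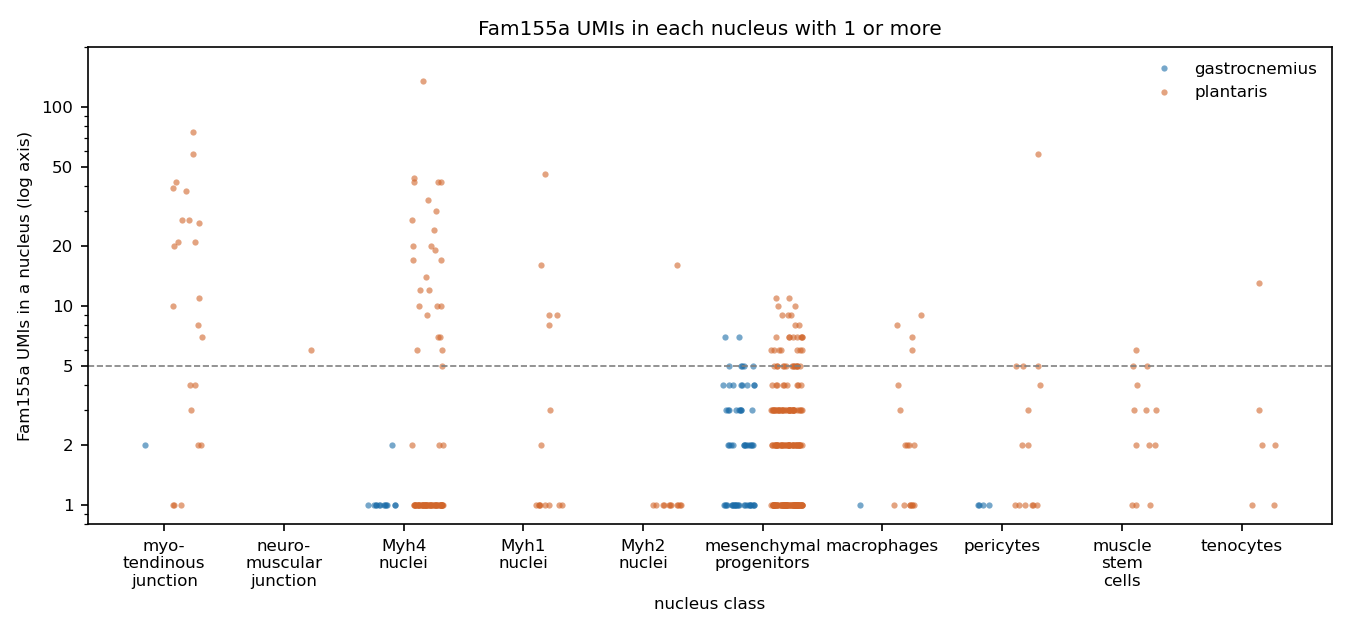
Fam155a UMIs in each nucleus that held 1 or more (vertical axis, log scale), by nucleus class and library, with 1 point per nucleus spread sideways and a dashed line at 5 UMIs. Plantaris myotendinous junction and Myh4 nuclei reach 75 and 135 UMIs, while no gastrocnemius nucleus of a muscle class exceeds 2 and mesenchymal nuclei reach 7 and 11.

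The 50 nuclei had a median of 4038.5 UMIs in all, against 3328.5 in plantaris myonuclei without Fam155a. All 10 myonuclear markers were detected in them, at a summed 80772 CPM. Of the 10 mesenchymal markers 8 were detected, with Col1a1 and Lum at 0, at a summed 180 CPM against 69.2 CPM in the nuclei without Fam155a and a median nucleus at 0. Tenocyte markers (Tnmd, Thbs4, Scx, Mkx, Fmod and Col11a1) were all at 0, and of 7 neuronal markers only Rbfox3 was seen, with 1 UMI. Of 8 Schwann cell markers 2 were detected, and Sox10, Cdh19, Mbp, Ngfr and S100b were among those at 0. The list summed to 246 CPM against 59.5 CPM. The median doublet score, the share of simulated doublets among a nucleus's neighbours, was 0.467 against 0.333. With the 5% of nuclei with the highest scores left out of each library, Fam155a kept 1314 plantaris UMIs and a log2 ratio of 5.73.

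By cluster, the 50 nuclei fell into a pair of settings. The first was the myotendinous junction, where the fibre end is anchored to tendon and where myonuclei make the collagen Col22a1. Of the 50 nuclei, 23 (46%) held a Col22a1 UMI, against 3.42% of plantaris myonuclei without Fam155a. In the cluster that holds the junction nuclei (cluster 14, led by Kcnh7, Thsd7b, Kcnip4, Slc24a2 and Col22a1), 22 of 160 plantaris nuclei (13.8%, 8.82% to 20.1%) held 5 or more Fam155a UMIs, 712 UMIs together, and 0 of 98 gastrocnemius nuclei did. The second was nuclei outside that cluster. The remaining 28 of the 50 lay there, among them 1 with 3 or more Col22a1 UMIs and 1 neuromuscular junction nucleus, and none of them held a Kcnh7 UMI and 2 held a Col22a1 UMI. Of these 28, 17 were in cluster 3 (1.27% of its 1334 plantaris nuclei), a set of plantaris Myh4 nuclei led by Ryr3 and Smoc1.

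With the junction defined by 3 or more Col22a1 UMIs in a myonucleus, 52 gastrocnemius and 110 plantaris nuclei qualified. Their depth was alike, with medians of 3968.5 and 3930.5 UMIs. Col22a1 stood at 2021 and 2126 CPM, but it chose these nuclei, so its level is no separate check of likeness. Fam155a gave 2 UMIs in gastrocnemius, both in 1 nucleus (8.94 CPM, 1.08 to 32.3). In plantaris it gave 448 (973 CPM, 885 to 1067), with 15 of 110 nuclei (13.6%, 7.84% to 21.5%) at 5 or more and 11 at 20 or more. The log2 ratio of plantaris over gastrocnemius was 6.77 (4.90 to 9.82) and 4.52 with nuclei thinned to 1000 UMIs. None of the 52 gastrocnemius nuclei held 5 or more, which by counting error alone allows a share of up to 6.85%. Nuclei of 1 library are not replicates, so these shares are no test of the muscles. Against the other myonuclei of plantaris the junction nuclei were higher by a log2 ratio of 4.53 (4.37 to 4.70). Of 10666 genes in that comparison 13% were at a log2 ratio of 1 or more and the median was -0.04. The same ratio in gastrocnemius, on 2 against 16 UMIs, was 3.07 (-0.09 to 5.16).

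Not every junction nucleus of plantaris held Fam155a, and those that did were mostly those with Kcnh7, which encodes a potassium channel of the ERG family and is a leading gene of cluster 14. This split was chosen after the values were seen. Of 23 plantaris junction nuclei with 5 or more Kcnh7 UMIs, 12 (52.2%, 30.6% to 73.2%) held 5 or more Fam155a UMIs. Of the 87 with fewer, 3 did (3.45%, 0.717% to 9.75%). Gastrocnemius had nearly as many Kcnh7-bearing junction nuclei, 21, and none of them held 5 or more Fam155a UMIs, which allows up to 16.1%. Kcnh7, by which both sets were chosen, stood at 6831 CPM in gastrocnemius and 8758 CPM in plantaris. The Kcnh7-bearing junction nuclei of gastrocnemius gave 2 Fam155a UMIs in all, and those of plantaris 373. The sets were of like depth, with medians of 3533 and 4003 UMIs.

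**Figure D2:**
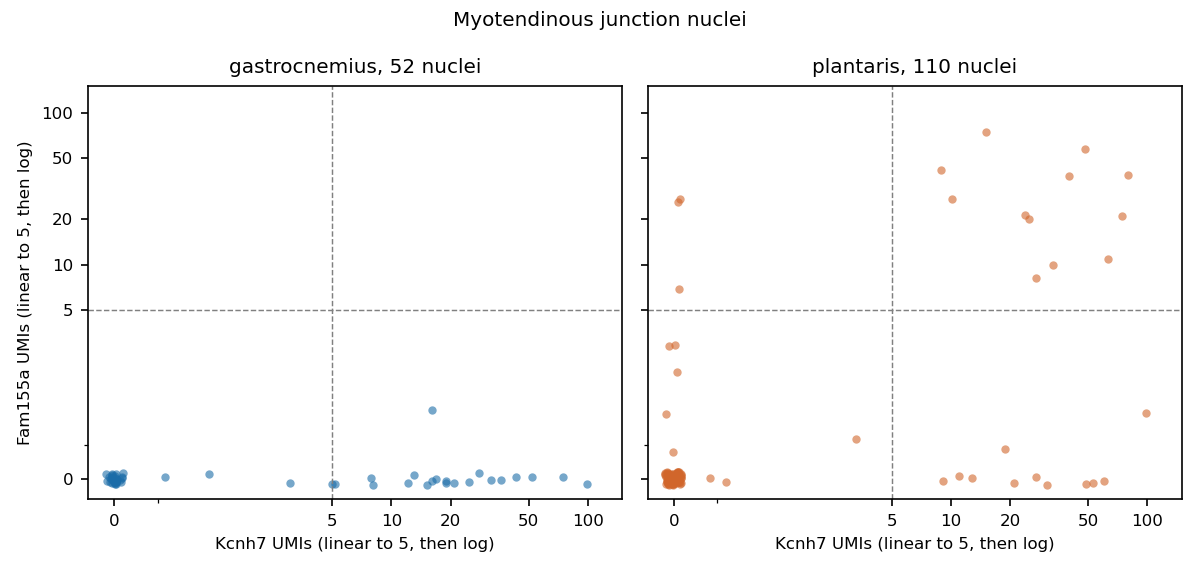
Fam155a UMIs (vertical) against Kcnh7 UMIs (horizontal) in each myotendinous junction nucleus of gastrocnemius (left) and plantaris (right), on axes that are linear to 5 and logarithmic above, with points shifted slightly to show overlaps and dashed lines at 5 UMIs. The upper right field holds 12 plantaris nuclei and no gastrocnemius nucleus, although 21 gastrocnemius nuclei lie right of the Kcnh7 line.

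At the neuromuscular junction, where the motor nerve contacts the fibre, Fam155a stayed near the floor. The 42 gastrocnemius nuclei, chosen by 3 or more of Chrne, Colq, Ufsp1, Musk, Etv5 and Chrna1, held 0 UMIs. The 67 plantaris nuclei held 6, all in 1 nucleus (19.3 CPM, 7.09 to 42.1). In plantaris this was a log2 ratio of -1.12 (-2.57 to 0.01) over myonuclei outside both junctions, an interval that includes 0. Within plantaris the summed level was thus 973 CPM in myotendinous and 19.3 CPM in neuromuscular junction nuclei. Nuclei with 5 or more UMIs were 13.6% (7.84% to 21.5%) and 1.49% (0.0378% to 8.04%) of them, intervals that overlap.

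Grouped by their most abundant adult myosin heavy chain transcript, the remaining myonuclei held Fam155a in plantaris for each fast type. Myh4 nuclei, the fastest type 2B, held 14 UMIs in gastrocnemius (1.01 CPM, 0.554 to 1.70) and 681 in plantaris (44.3 CPM, 41.1 to 47.8), a log2 ratio of 5.45 (4.69 to 6.33). Of the 4084 plantaris nuclei 26 held 5 or more, with a median of 17 among them. The groups left out junction nuclei by Col22a1 count and not by cluster. Cluster 14 nuclei with fewer than 3 Col22a1 UMIs, which held 310 Fam155a UMIs in plantaris, were therefore not removed. The nucleus with 135 UMIs, a Myh4 nucleus, was 1 of them. Myh1 nuclei (type 2X) numbered 131 in gastrocnemius, with 0 UMIs, and 725 in plantaris, with 101 (37.0 CPM), at least 4.76-fold higher against a floor of 3 UMIs over the class. Of these 101 UMIs 46 were in 1 nucleus, and without it the log2 ratio against the floor fell from 2.25 to 1.36. Myh2 nuclei (type 2A) numbered 174 in gastrocnemius, with 0 UMIs, and 563 in plantaris, with 27 (13.9 CPM), at least 2.32-fold higher, with 16 of the 27 in 1 nucleus. Without that nucleus 11 UMIs remained and the level no longer exceeded the gastrocnemius floor of 6.02 CPM. With nuclei thinned to 1000 UMIs, 8 plantaris UMIs remained and did not exceed the floor of the thinned gastrocnemius nuclei either. Myh7 nuclei, the slow type, numbered 22 in gastrocnemius, with 1 UMI, and 4 in plantaris, with 0.

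Within plantaris the summed level was highest in Myh4, then Myh1, then Myh2 nuclei, and part of this order rested on single nuclei. Myh1 over Myh4 nuclei gave a log2 ratio of -0.26 (-0.58 to 0.04), which was 0.20 with nuclei thinned to 1000 UMIs and -0.82 without the highest nucleus of each group, so the interval included 0 and the sign depended on the setting. Myh2 over Myh4 nuclei gave -1.67 (-2.28 to -1.11), which was -3.29 in nuclei with 10 or more Myh UMIs and -2.64 without the highest nucleus of each group. The share of nuclei with any Fam155a UMI was 2.03% in Myh4 nuclei, 2.07% in Myh1 nuclei and 2.13% in Myh2 nuclei, and 0.965%, 1.55% and 0.929% with nuclei thinned to 1000 UMIs. Most nuclei behind these shares held 1 UMI each, and free RNA was not separated from such single UMIs. Nuclei with 5 or more UMIs were 0.178% (0.00450% to 0.986%) of Myh2 nuclei against 0.637% (0.416% to 0.931%) of Myh4 nuclei, intervals that overlap.

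**Figure D3:**
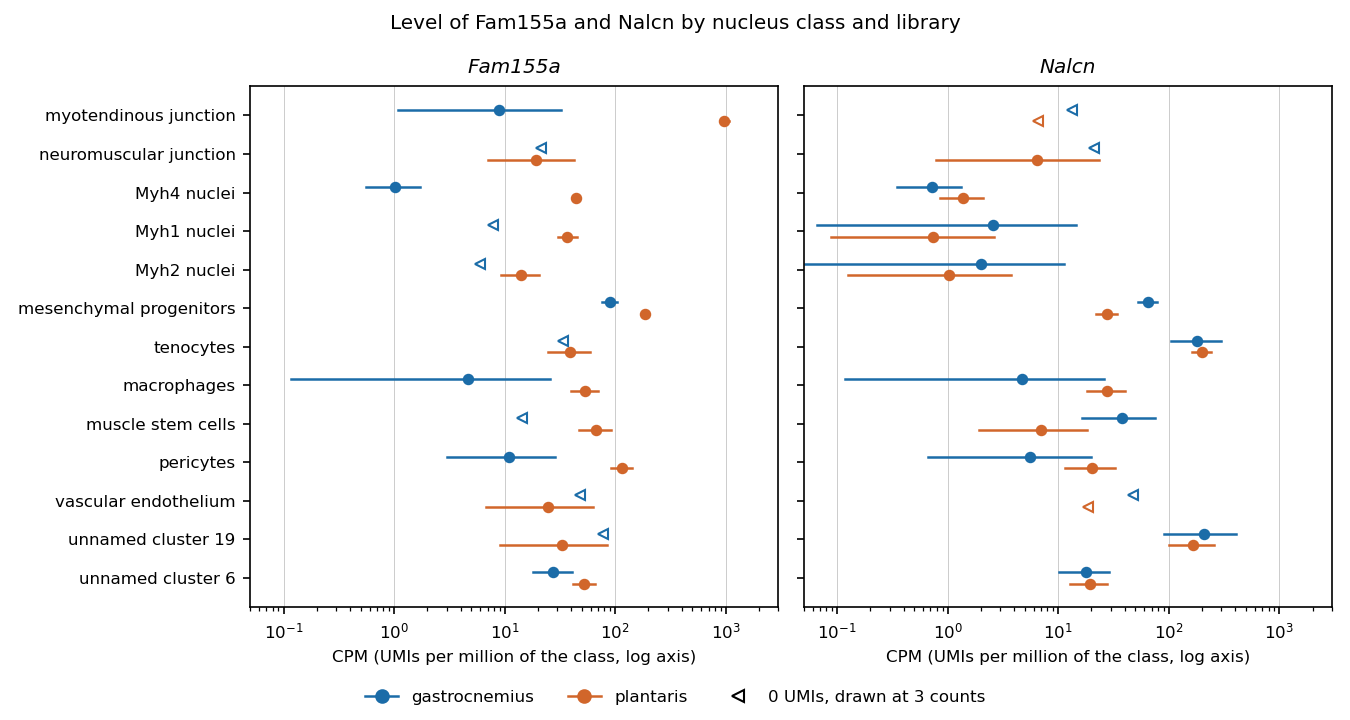
Level of Fam155a (left) and Nalcn (right) in CPM on a log axis, by nucleus class, with a point and its 95% Poisson interval per library and an open triangle at the level of 3 counts where 0 UMIs were seen. Fam155a is highest in plantaris myotendinous junction nuclei, at 973 CPM, and Nalcn in tenocytes and unnamed cluster 19, from 166 to 208 CPM in both libraries.

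Outside muscle fibres, Fam155a was present in both muscles in mesenchymal progenitors, named from Pdgfra, Dcn and other fibroblast markers. It gave 148 UMIs in gastrocnemius (89.3 CPM, 75.5 to 105) and 581 in plantaris (185 CPM, 171 to 201), a log2 ratio of 1.05 (0.79 to 1.32). In that comparison 5.65% of 10829 genes were at a log2 ratio of 1 or more, and the median was 0.09. Here the UMIs were less concentrated than in plantaris myonuclei, where nuclei with 5 or more carried 92.0%. Such nuclei numbered 7 in gastrocnemius, with 26.4% of the mesenchymal UMIs, and 38 in plantaris, with 43.5%. A UMI was seen in 61 of 1066 gastrocnemius nuclei (5.72%) and in 216 of 1516 plantaris nuclei (14.2%), and in 4.84% and 9.55% with nuclei thinned to 1000 UMIs. The highest nucleus held 7 and 11 UMIs. In gastrocnemius the mesenchymal level was higher than the myonuclear level by a log2 ratio of 6.26 (5.55 to 7.05). In plantaris this ratio was 1.59 (1.44 to 1.73). Whether free RNA or doublets added to the mesenchymal UMIs was not tested.

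The mesenchymal nuclei formed 3 clusters, and in both libraries cluster 9 had the highest level of Fam155a and the lowest of Nalcn. The summed levels of clusters 2 and 15 also ran in opposite orders, but those of cluster 15 rest on few UMIs. Cluster 9 carried Dpp4 and Pi16, which mark interstitial progenitors regarded as stem-like, with Dpp4 at 789 and 563 CPM in gastrocnemius and plantaris. Fam155a stood there at 162 CPM (127 to 203) and 293 CPM (260 to 329). In cluster 2, where Bmper and Col15a1 stood at 2234 and 674 CPM in gastrocnemius, Fam155a was at 67.3 CPM (52.7 to 84.6) and 163 CPM (144 to 183). In cluster 15, led by Hmcn1, Ephb2 and Gabra3, it was at 8.68 CPM on 1 UMI and at 33.9 CPM (19 to 55.9). The log2 ratio of cluster 9 over cluster 2 was 1.27 in gastrocnemius (0.78 to 1.75) and 0.85 in plantaris (0.61 to 1.09).

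Nalcn, the pore itself, was lowest in cluster 9, on 8 UMIs in gastrocnemius (17.5 CPM, 7.55 to 34.5) and 5 in plantaris (5.11 CPM, 1.66 to 11.9). It was at 75.6 CPM (60.1 to 93.8) and 34.4 CPM (26.2 to 44.4) in cluster 2, and at 148 CPM (85.9 to 236) and 49.7 CPM (31.1 to 75.3) in cluster 15. The same ratio was -2.11 in gastrocnemius (-3.37 to -1.06) and -2.75 in plantaris (-4.43 to -1.45). The cluster with most of the partner thus held least of the pore. Cluster 15 and cluster 2 were not told apart for Nalcn in plantaris, at 0.53 (-0.25 to 1.26). In gastrocnemius cluster 15 over cluster 2 gave 0.97 (0.12 to 1.73). The 17 UMIs of cluster 15 there lay in 6 nuclei, with 8 of them in 1 nucleus, and 9 remained without it.

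**Figure D4:**
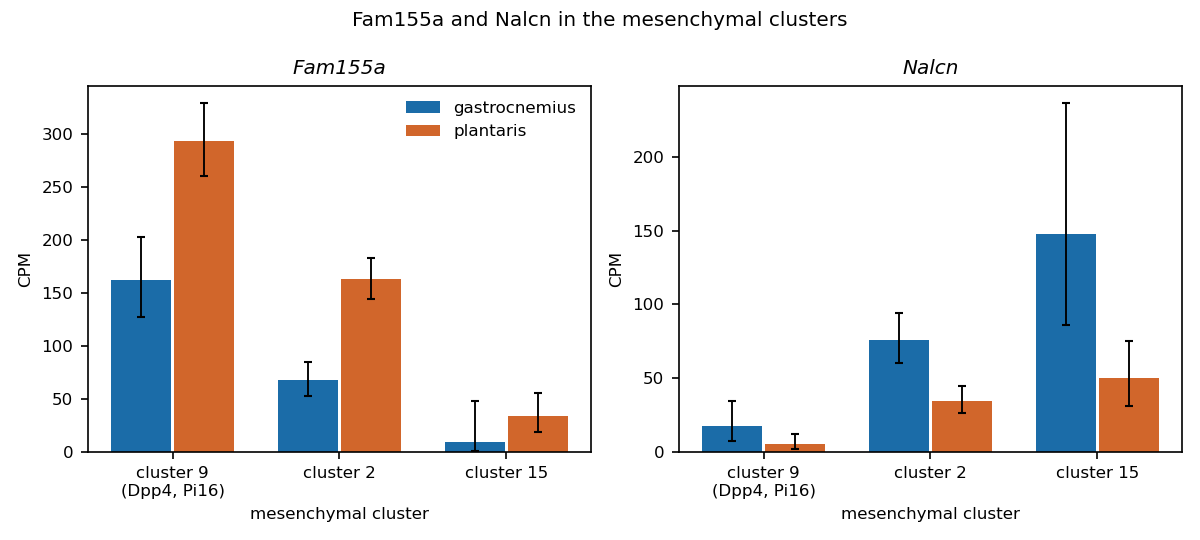
Level of Fam155a (left) and Nalcn (right) in CPM in the 3 mesenchymal clusters by library, with bars from 0 and 95% Poisson intervals. Fam155a is highest in cluster 9 (162 and 293 CPM) and lowest in cluster 15 (8.68 and 33.9 CPM), and Nalcn is lowest in cluster 9 (17.5 and 5.11 CPM) and highest in cluster 15 (148 and 49.7 CPM). The Nalcn intervals of clusters 2 and 15 overlap in both libraries, and 8 of the 17 Nalcn UMIs of gastrocnemius cluster 15 are in 1 nucleus.

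Between the muscles the genes also lay in opposite directions in mesenchymal nuclei. Nalcn gave 107 UMIs in gastrocnemius (64.5 CPM, 52.9 to 78.0) and 86 in plantaris (27.4 CPM, 21.9 to 33.9), a log2 ratio of -1.23 (-1.66 to -0.81). In that comparison 2.4% of genes were at -1 or less. The ratio had the same sign in each cluster, -1.13 (-1.64 to -0.63) in cluster 2, -1.57 (-2.55 to -0.57) in cluster 15 and -1.78 (-3.73 to 0.02) in cluster 9, the last with an interval that includes 0. The cluster 15 ratio leans on a single nucleus, which held 8 of its 17 gastrocnemius UMIs. Fam155a was higher in plantaris by 1.28 (0.90 to 1.67) in cluster 2 and 0.86 (0.48 to 1.25) in cluster 9. In cluster 15 the ratio was 1.97 (-0.73 to 7.36), on 1 gastrocnemius and 15 plantaris UMIs, with an interval that includes 0.

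In other classes Fam155a was seen mainly in plantaris. Pericytes, which wrap capillaries, held 4 UMIs in gastrocnemius and 90 in plantaris, 58 of them in 1 nucleus. Macrophages held 1 and 52, muscle stem cells 0 and 38 (at least 4.68-fold higher), tenocytes 0 and 22, of which 13 were in 1 nucleus, and vascular endothelium 0 and 4. Levels in plantaris macrophages (53.1 CPM, 39.7 to 69.6) and stem cells (67.0 CPM, 47.4 to 92.0) were close to that of plantaris myonuclei, and Ttn in the same nuclei stood at 19756 and 20694 CPM. Whether these UMIs were free RNA, doublets or transcripts of the classes themselves was not tested.

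Among named classes Nalcn was highest in tenocytes, the fibroblasts of tendon, named from Tnmd, Thbs4, Mkx, Fmod and Col11a1. The 54 gastrocnemius tenocytes gave 16 UMIs (182 CPM, 104 to 295) and the 162 plantaris tenocytes 111 (199 CPM, 163 to 239). A UMI was seen in 14 gastrocnemius nuclei (25.9%, 15% to 39.7%) and 57 plantaris nuclei (35.2%, 27.9% to 43.1%), against 0.235% and 0.482% of myonuclei. Thinned to 1000 UMIs, the tenocyte shares were 18.2% and 18.1%. The log2 ratio over mesenchymal progenitors was 1.49 in gastrocnemius (0.63 to 2.26) and 2.86 in plantaris (2.44 to 3.28), and that between the muscles was 0.13 (-0.63 to 0.99). Mesenchymal cluster 15 alone stood at 148 CPM (85.9 to 236) in gastrocnemius, an interval that overlaps that of tenocytes. Of the 17 UMIs behind this level 8 were in 1 nucleus. In plantaris cluster 15 stood at 49.7 CPM (31.1 to 75.3), below the tenocyte interval. Fam155a was lower in plantaris tenocytes than in mesenchymal progenitors, by a log2 ratio of -2.23 (-2.92 to -1.62).

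Unnamed cluster 19 held Nalcn at a level like that of tenocytes, 8 UMIs in its 21 nuclei of gastrocnemius (208 CPM, 89.9 to 410) and 20 in its 41 of plantaris (166 CPM, 101 to 256). The cluster carried the Schwann cell markers Cdh19 and Mbp beside mesenchymal markers and was led by Tenm2, Ntng1, Hcn4, Kank4 and Itgb4. It was given no cell type because its 10 leading genes included Cdh19 and no mesenchymal marker. Unc80 gave 4 UMIs here in 2 nuclei of gastrocnemius (104 CPM, 28.4 to 267) and 4 in 3 nuclei of plantaris (33.2 CPM, 9.05 to 85). Counts this low do not rank the classes. In plantaris another unnamed cluster, 21, stood at 30.6 CPM (0.774 to 170) on 1 UMI. All other nuclei gave the remaining Unc80 UMIs, of which 4 were in plantaris myonuclei and 0 in gastrocnemius myonuclei.

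In muscle fibres the pore was near the limit of detection. Nalcn gave 12 UMIs in gastrocnemius myonuclei (0.778 CPM, 0.402 to 1.36) and 30 in plantaris myonuclei (1.41 CPM, 0.95 to 2.01), a log2 ratio of 0.85 (-0.15 to 1.96). Myotendinous junction nuclei of both muscles gave 0 UMIs, which allows up to 16.5 CPM in gastrocnemius and 8.01 CPM in plantaris. By Myh group Nalcn gave 10 and 21 UMIs in Myh4 nuclei, 1 and 2 in Myh1 nuclei and 1 and 2 in Myh2 nuclei of gastrocnemius and plantaris. Divided by gene length, plantaris myonuclei held Fam155a at 10.9 CPM and Nalcn at 0.402 CPM per 100 kb, though whether counts scale with length in these 3' libraries was not tested. In plantaris tenocytes the same scale gave Fam155a 6.97 CPM and Nalcn 56.7 CPM. Other Nalcn levels were 38.2 CPM on 8 UMIs and 7.06 CPM on 4 UMIs in muscle stem cells, and 27.6 CPM (18.2 to 40.1) in plantaris macrophages.

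The scaffold genes were hardly detected. Unc79 gave 3 UMIs in gastrocnemius myonuclei and 1 in plantaris myonuclei, 2 and 1 in mesenchymal progenitors, and 0 in tenocytes and cluster 19 of both libraries. Tmem28, the RefSeq symbol for Fam155b, the paralog of Fam155a, gave 2 and 12 UMIs over all nuclei. At this depth neither a difference nor an absence can be read from these genes.

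The partner and the pore were also counted nucleus by nucleus. Over all nuclei, 100 of 7374 in gastrocnemius held a Fam155a UMI, 121 a Nalcn UMI and 1 both. In plantaris 456 of 9150 held Fam155a, 206 Nalcn and 22 both, which is 4.82% of the Fam155a nuclei and 10.7% of the Nalcn nuclei. Among plantaris myonuclei 3 held both, and in tenocytes 3 of 162. Of the 50 plantaris myonuclei with 5 or more Fam155a UMIs, the summed Nalcn count was 2 UMIs. No nucleus held Fam155a, Nalcn and a scaffold gene, or Nalcn and a scaffold gene. With so few Nalcn and scaffold UMIs per nucleus, a nucleus with no UMI may still express the gene.

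Other genes of the resting membrane were described by fixed lists, with the genes of 20 or more UMIs that passed a log2 ratio of 1 counted. Between the muscles in myonuclei, where 9.11% of genes were higher in plantaris and 2.39% lower, 1 of 6 sodium pump genes was past it, Atp1b4 at 1.71 (1.38 to 2.05), a beta-family subunit found at the nuclear membrane of muscle. The list median was 0.69. Of 3 measured partners and regulators of NALCN, 1 was lower, Casr, the calcium-sensing receptor, at -1.06 (-1.36 to -0.75). Chrm3, the muscarinic M3 receptor, stood at 0.60 (0.27 to 0.95) and Src, a tyrosine kinase, at 0.39 (-0.13 to 0.93). None of 7 voltage-gated sodium channel genes (median 0.25), 8 chloride and potassium conductance genes (median -0.04) or 5 calcium channel genes (median -0.000207) was past it. In mesenchymal progenitors none of the 2 leak partner, 7 sodium channel, 6 chloride and potassium, 4 pump and 4 calcium channel genes measured was past it, where 5.65% of all genes were higher and 2.4% lower, so this is near the background.

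At the plantaris myotendinous junction, where 13% of genes were higher and 11.6% lower than in other myonuclei, the lists held genes on both sides. Of 6 sodium pump genes 1 was higher, Atp1b4 at 3.93 (3.59 to 4.25), and 2 were lower, among them Atp1b1 at -1.62 (-2.43 to -0.92). Of 7 sodium channel genes, Ank3, the ankyrin that anchors sodium channels, was lower at -1.82 (-1.97 to -1.67), as was Scn4a, the muscle sodium channel, at -1.09 (-1.71 to -0.53), while Fgf12 stood at 2.09 (-1.05 to 4.12) on 2 UMIs. Abcc8, the sulfonylurea receptor of a potassium channel, was higher at 2.11 (1.01 to 3.05), and Kcna7 stood at -1.16 (-3.45 to 0.40). Cacng1, a calcium channel subunit, was higher at 1.07 (0.59 to 1.5) among 5 calcium channel genes. The lone leak regulator past the limit was Chrm3 at -1.15 (-4.21 to 0.72), on 2 UMIs. The list medians were -0.48 for the pump, -0.31 for sodium channels, -0.10 for chloride and potassium conductance, 0.59 for calcium channels and -0.16 for the leak partners.

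Of 6 protein-coding genes beside Fam155a on the chromosome, 5 had 20 or more UMIs in myonuclei. None of the 5 was past a log2 ratio of 1 between the muscles, against 9.11% higher and 2.39% lower over all genes (with 5 genes, 0 is near that background). Their median was 0.12 against 0.18 over all genes. They were Efnb2 (0.53), Lig4 (0.33), Arglu1 (0.12), Abhd13 (-0.17) and Tnfsf13b (-0.85). At the plantaris junction Efnb2, an ephrin ligand, was at 3.48 (2.38 to 4.46), on 11 UMIs in 4 nuclei. Of 5 neighbours of Nalcn 1 was past the limit in myonuclei, Fgf14, at 1.14 (0.58 to 1.74). At the plantaris junction Fgf14, which modulates sodium channels, was at 6.52 (5.92 to 7.15), with 72 UMIs in 8 nuclei and 29 in 1 of them. Of the neighbours of Unc79 and of Unc80, 4 each were measured and 0 were past the limit in myonuclei, again near the background. At the plantaris junction 13% of all genes were higher and 11.6% lower. There 1 of 5 Fam155a neighbours was higher and 0 lower, and of 5 Nalcn neighbours 1 was higher and 1 lower. Of 4 Unc79 neighbours 0 were higher and 2 lower, and of 4 Unc80 neighbours 1 was higher and 1 lower. These lists are too short to be set apart from those shares.

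Across 30 library and class points of 50000 or more UMIs, the genes most like Fam155a among 11631 were Lcat (Pearson r 0.79), Azin2 (0.75), Adamts17 (0.72), Gm21887 (0.71) and Pla2g6 (0.70), on log2 of CPM plus 1. Those most like Nalcn were Dsel (0.92), Gm12963 (0.91), Bcat1 (0.91), Fbln7 (0.90) and Bmp4 (0.89). The points share libraries and differ in depth, and some of these genes are sparse, with 100 UMIs of Lcat in all. The values describe these libraries only.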

How the data were processed

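Per the labels' protocols, sorted nuclei were loaded on the 10x Chromium system for 3' libraries. The submitters' processing notes name Cell Ranger 6.0.1 and build mm10. The annotation, intron counting and nucleus calling were not given in the sources used here. The deposited table holds raw counts (UMIs, whole numbers), and a deposited list gives the library of each barcode. It held 32285 genes in 16530 nuclei.

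Nuclei below 200 genes or at 5% or more mitochondrial UMIs were left out (6 of plantaris). Counts were scaled to 10000, 2000 variable genes without the 4 members and 30 principal components were used, and a graph of 15 neighbours was partitioned with leidenalg 0.10.2 (resolution 1, seed 0), with scanpy 1.11.5, scikit-learn 1.9.0 and Python 3.11.15. Class names mean "X-like", from 3 or more markers each. Unnamed clusters held 1305 of 16524 nuclei (7.90%). No doublets were removed. Doublet scores came from simulated doublets among 30 neighbours.

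UMIs were summed per class and library and divided by the class total. Intervals are exact Poisson (CPM), Clopper-Pearson (shares) and conditional binomial (ratios), at 95%. A zero count was replaced by 3 counts, the floor. The ratio and its interval were checked on simulated counts. Gene positions came from GENCODE M21 and neighbours from the RefSeq table. No sequence is printed.

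The members, lists and naming rules were chosen with earlier results of these data known. The members are always named, list genes past a log2 ratio of 1 are named up to 3 in each direction, and like genes are the 5 with the highest correlation. A few genes that these rules or lists hold are not reported here. Alternatives were thinning to 1000 UMIs, the mean of each nucleus's CPM, median-ratio scaling, nuclei of 1000 or more UMIs, leaving out high doublet scores, other junction, Myh or class limits and, chosen after seeing the data, leaving out the highest nucleus.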

Additional observations from a re-analysis of the deposited data

How the results depend on the processing

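Of 116 alternative values for 18 ratios, 108 stayed within the interval of the ratio (or within 1.5-fold of a value set by the floor), and 115 kept its sign. The exception in sign was Fam155a in plantaris Myh1 over Myh4 nuclei, at -0.26, which was 0.20 with nuclei thinned to 1000 UMIs and -0.82 without the highest nucleus. Fam155a in plantaris over gastrocnemius myonuclei (5.72) was 4.54 when unnamed nuclei were taken in, on 43 and 1400 UMIs. In the myotendinous junction (6.77) it was 4.52 after thinning, where 2 gastrocnemius UMIs set the value. In Myh1 nuclei, where the floor sets it (2.25), it was 0.71 after thinning and 1.36 without the highest nucleus. Myh2 over Myh4 nuclei (-1.67) was -3.29 with 10 or more Myh UMIs and -2.64 without the highest nucleus. The cause of these shifts was not tested. Thinning left Fam155a in Myh2 nuclei without a ratio, and it has no value with 10 or more Myh UMIs or without the highest nucleus. Ratios with 0 UMIs in gastrocnemius have no mean of nuclei or median-ratio value. Median-ratio scaling lowered the ratio of all myonuclei to 5.57. Depth limits Unc79, Unc80 and Nalcn in myonuclei, and Fam155a at the neuromuscular junction. No paired analysis was possible because each muscle has a single library and no label ties the animals of one to the other.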

Other observations

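Kcnip4, which encodes a potassium channel-interacting protein and shares with Fam155a the concentration of UMIs in few plantaris myonuclei, gave 743 UMIs in the 110 plantaris myotendinous junction nuclei and 0 in the 52 of gastrocnemius. Only 2 of the 110 nuclei held 5 or more, so its summed level rests on them. Erbb4, a neuregulin receptor, was at 1487 CPM in plantaris and 2330 CPM in gastrocnemius junction nuclei, with 31 and 18 nuclei at 5 or more UMIs. Among junction nuclei with 5 or more Kcnh7 UMIs it was at 4504 CPM in plantaris and 4457 CPM in gastrocnemius, where Fam155a stood at 3889 CPM and 24.2 CPM. The highest Fam155a count of the data, 135 UMIs, was in a plantaris nucleus of cluster 14 with fewer than 3 Col22a1 UMIs. In that cluster 8 of 52 such plantaris nuclei (15.4%, 6.88% to 28.1%) held 5 or more Fam155a UMIs, against 14 of 108 (13%, 7.27% to 20.8%) with 3 or more Col22a1 UMIs.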
